A study of Homo sapiens with 15 samples.

Results

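Messenger RNA was measured on Affymetrix arrays in A549, an epithelial cell line from a human lung adenocarcinoma, after treatment with polyamides, which are synthetic molecules that bind DNA in its minor groove. The 6 arrays compared here are those titled for match polyamide with dexamethasone, 3 arrays, and for mismatch polyamide with dexamethasone, 3 arrays, out of 15 arrays in the series. The match cells received match polyamide for 48 hours with dexamethasone, a synthetic glucocorticoid, for 6 hours. The mismatch cells received mismatch polyamide for 48 hours with the same 6 hours of dexamethasone. Cells given dexamethasone alone for 6 hours and non-treated cells, 3 arrays each, were used to say which genes the hormone changed. The last 3 arrays were of cells given mifepristone for 48 hours with dexamethasone for 6 hours. They entered only the normalization, the filter, the principal component analysis and the fit. All cells grew in F12K medium with charcoal-treated serum. The sources used here do not state doses or ligand structures, so the comparison is matched in time and in hormone but not known to be matched in dose. Nothing in the labels says that replicate arrays came from separate cultures, and each p-value rests on differences among the arrays alone, which could be technical.

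The activated glucocorticoid receptor enters the nucleus and binds glucocorticoid response elements, DNA sequences built from a pair of half-sites with the letters AGAACA facing each other. Bound receptor raises the transcription of genes such as FKBP5 and TSC22D3, and it lowers many inflammatory genes, in part by acting on other transcription factors without contacting such an element itself. Polyamides of the pyrrole and imidazole kind read the minor groove by the pairing of their rings, and a change of rings changes the letters that are preferred. A comparison of a match with a mismatch ligand is therefore meant to ask which transcripts depend on the DNA sequence that the ligand prefers. An effect that both ligands share at unlike strength also stays in the difference. Without doses or ligand structures it cannot be told apart from sequence preference here.

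In a principal component analysis of the tested probe sets, the leading component took 39.43% of the variance, with scores of 60.5 to 67.0 on the match arrays and 31.9 to 35.6 on the mismatch arrays, against -36.7 to -30.2 on the other 9 arrays. The ligands therefore lay on the same side of this axis and apart from each other. On the second component the ligands lay on opposite sides, at 20.03 to 26.18 with match and -36.41 to -28.87 with mismatch. Non-treated arrays (12.51 to 17.59) and mifepristone arrays (10.04 to 11.88) lay on the match side of it. Arrays of dexamethasone alone (-17.83 to -13.67) lay on the mismatch side. Trimmed mean signals ran from 90.4 to 107.5 on the match arrays and from 91.9 to 137.4 on the mismatch arrays, so the arrays were not scaled alike and were quantile normalized. The ratio of 3' to 5' signal of ACTB, a sign of RNA quality, was 1.32 to 1.72 with match and 1.41 to 1.99 with mismatch, and the groups overlapped. The 5 epithelial markers KRT8, KRT18, KRT19, EPCAM and CDH1 were all measured, and their summed signal was 14336 to 15656 with match and 16393 to 17050 with mismatch. Of these, KRT8 (-0.43 on the log2 scale) and CDH1 (-0.33) were called lower with match. KRT18 (-0.05), KRT19 (0.10) and EPCAM (0.30, limma adjusted p = 0.070) were not called, so the markers did not move together. The part of the lower summed signal in other results was not tested. In RNA of whole cultures, fewer cells of a type and less RNA per cell cannot be told apart. The leukocyte marker PTPRC stayed at 1.44 to 13.7 with match and 0.48 to 7.57 with mismatch, near the floor of the arrays. The 2 tested leukocyte markers of that set, CD3E and CD14, were not called. Of the fibroblast markers COL1A1 was called higher with match (0.54 on the log2 scale, SE 0.11, limma adjusted p = 0.0012). It had 251, 233 and 207 with match against 144, 161 and 155 with mismatch. Its other probe sets, at 0.28, 0.34 and 0.15, were not called. COL1A2, THY1 and DCN were not called either.

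Differences are given as log2(signal + 16), match minus mismatch, and a gene was called at a limma adjusted p under 0.05. The added 16 understates the change of dim genes. Of 16358 genes tested, 3741 were called (22.9%), 1540 of them higher with match (9.41%) and 2201 lower (13.5%). Of these, 228 differed at least 2-fold (1.39%), with 65 higher (0.397%) and 163 lower (0.996%). On probe sets the counts were 6697 of 39744 (16.9%), with 2969 higher (7.47%) and 3728 lower (9.38%), and 440 differed at least 2-fold (1.11%), 155 higher (0.39%) and 285 lower (0.717%). The arrays did not overlap between the groups for 5964 genes (36.5%). The split between directions depended on how the arrays were scaled: 44.3% of called probe sets were higher with quantile normalization, 17.97% on the signals as deposited, 19.7% with median centring and 73.0% with spike-in scaling. Across those settings the median of all genes stood between -0.10 and 0.12, and in the quantile-normalized data at -0.02. The count of called probe sets was 3094 on the deposited signals and 2831 with spike-in scaling.

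The highest genes in match over mismatch were NR4A2, CCL20, CARD8-AS1, GKN2 and CXCL2. NR4A2, an orphan nuclear receptor of the immediate early class, had 1039.7, 981 and 934 signal units with match and 126, 104 and 130.2 with mismatch. Its difference was 2.88 (SE 0.11, limma adjusted p = 1.0e-11), and the 3 match arrays all lay above the 3 mismatch arrays. The choice of the 12 highest and 12 lowest genes required a call and arrays without overlap of each of them. Its 2 other probe sets stood at 2.64 and 2.78. With dexamethasone alone NR4A2 was at 18.6, 13.3 and 19.3, and it was 4.92 higher with match and 2.04 higher with mismatch than there, both passing the test. By the same call, 38.9% of genes differed between match and dexamethasone alone and 29.6% between mismatch and dexamethasone alone.

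CCL20, a chemokine that draws cells bearing CCR6, had 185, 128 and 129 with match against 2.57, 12.4 and 12.8 with mismatch (2.70, SE 0.20, limma adjusted p = 1.6e-08). CXCL2, a neutrophil chemokine, had 339.9, 293 and 311 with match against 78.5, 95.3 and 79.2 with mismatch (1.72, SE 0.13). In the mismatch cells CXCL2 differed from dexamethasone alone by 0.11 (limma adjusted p = 0.61) and CCL20 by 0.51 (limma adjusted p = 0.079). The CCL20 means, 9.25 with mismatch and 1.41 with dexamethasone alone, lay near the floor of the arrays, so a difference could be missed. Without treatment the means were 1.48 for CCL20 and 78.9 for CXCL2, beside 1.41 and 76.6 with dexamethasone alone. The CXCL2 probe set is of the kind that may take up related transcripts, and without a filter on dim probe sets another one stood for the gene and gave -0.021. DUSP5, which switches off the kinase ERK in the nucleus, had 939, 931 and 957 with match and 294, 326 and 283 with mismatch (1.60, SE 0.08). DDX10, an RNA helicase tied to ribosome assembly, had 474, 465 and 458 with match and 127, 137 and 136 with mismatch (1.69, SE 0.09). DDX10 with dexamethasone alone lay between them at 230.3, 227 and 214, so it was higher with match by 1.01 and lower with mismatch by 0.69 than there.

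The other genes among the 12 highest were the non-coding RNA CARD8-AS1 at 2.00, the gastric peptide gene GKN2 at 1.76, the trefoil peptide gene TFF1 at 1.68, the Notch target HES1, the spermine oxidase SMOX at 1.48, the EGF receptor ligand EREG at 1.47 and the protease inhibitor SERPINB8 at 1.45. HES1 had 146, 163 and 238 with match and 55.2, 52.4 and 50.2 with mismatch. SMOX had 752, 755 and 754 with match and 276, 276 and 229 with mismatch. Passing the test was a condition of the choice, and of these 7 GKN2 had the highest limma adjusted p (0.00014).

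**Figure D1:**
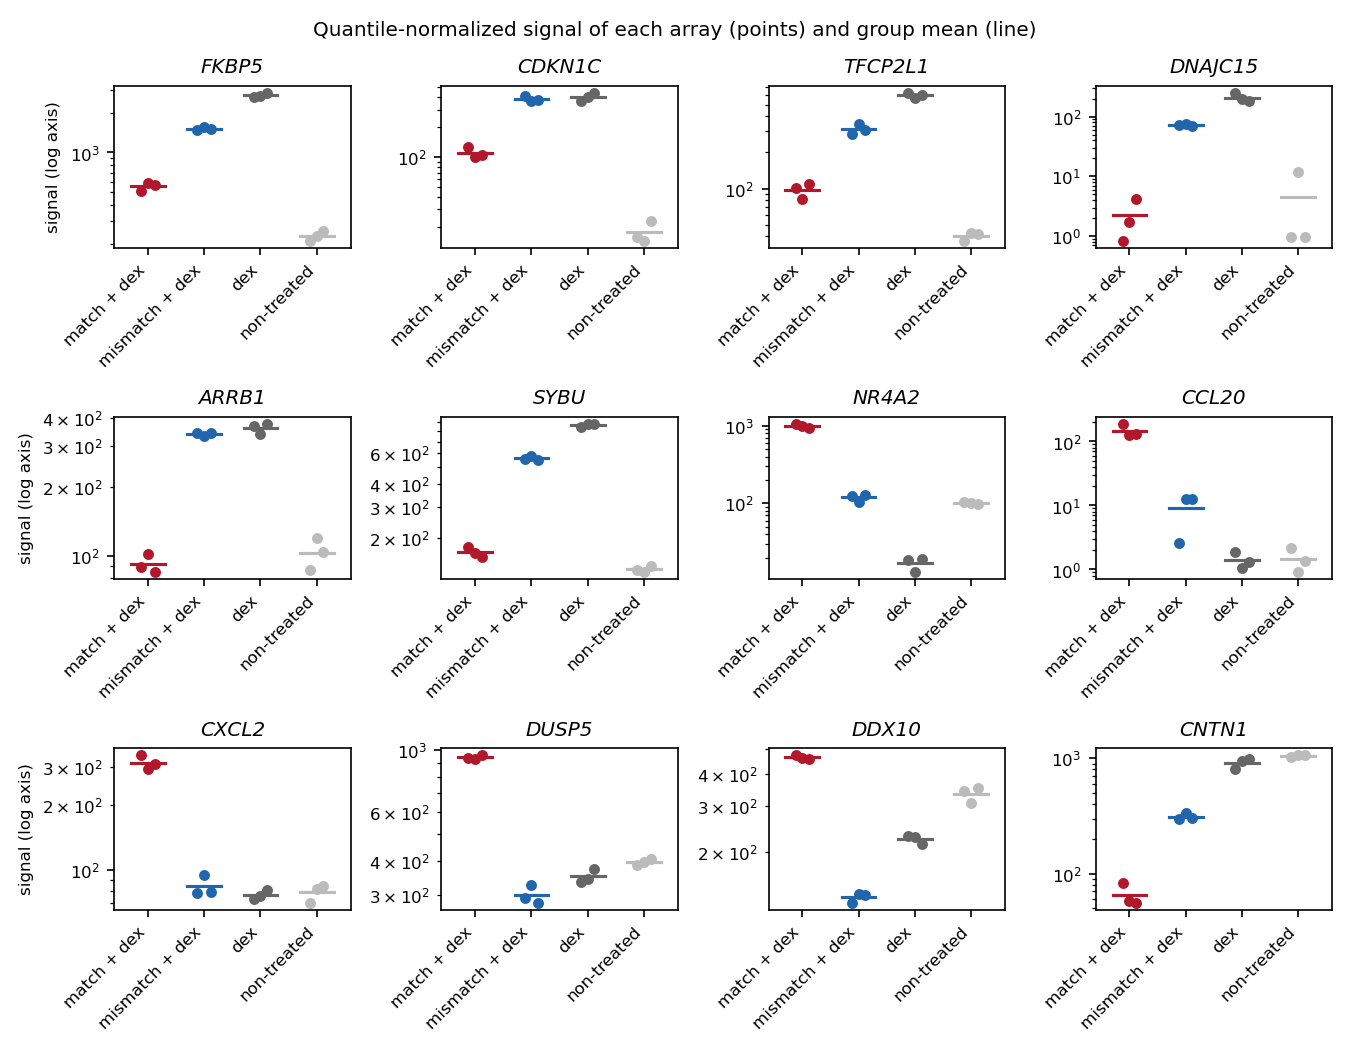
Signals of 12 genes on each array (log axis, quantile-normalized signal units), with match, mismatch, dexamethasone alone and non-treated arrays from left to right; points are arrays and lines are means of 3. FKBP5 was 509 to 586 with match and 1480.0 to 1573 with mismatch, and NR4A2 was 934 to 1039.7 with match and 104 to 130.2 with mismatch.

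Among the genes most lowered by match were several that dexamethasone had raised. DNAJC15, which encodes a co-chaperone of mitochondria, had 0.84, 1.71 and 4.21 with match against 73.6, 75.3 and 69.3 with mismatch (-2.29, SE 0.21, limma adjusted p = 1.9e-07). The match values lay at the level of the non-treated arrays, 0.98, 11.8 and 0.97, below the range where the arrays measure well, and 2 further probe sets of the gene were not called. CDKN1C, the cyclin-dependent kinase inhibitor p57, had 125, 101 and 105 with match and 412, 362 and 377 with mismatch (-1.66, SE 0.12). The mismatch arrays of CDKN1C overlapped those of dexamethasone alone, 362, 397 and 436, and the match arrays lay below all of them. ARRB1, beta-arrestin 1, a regulator of G protein coupled receptors, had 89.7, 101 and 85.3 with match and 342, 334 and 343 with mismatch (-1.72, SE 0.11). SYBU, which links cargo to kinesin, had 177, 164 and 155 with match and 558, 578 and 552 with mismatch (-1.68, SE 0.08).

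CDH16, a cadherin of kidney epithelium that dexamethasone also raised, stood at -1.94 (SE 0.26).

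The other genes of the 12 lowest were not among those that dexamethasone raised 2-fold. CNTN1, a neuronal adhesion molecule of the immunoglobulin family, had 83.4, 57.8 and 56.1 with match and 297, 332 and 304 with mismatch (-2.01, SE 0.11). With dexamethasone alone CNTN1 was at 801, 941 and 978, so it was lower than there with both ligands and lowest with match. FAF1, a factor that binds the death receptor Fas, showed the same order, with 27.4, 24.8 and 29.2 with match, 94.2, 142 and 111 with mismatch and 367, 336 and 375 with dexamethasone alone (-1.60, SE 0.12, match minus mismatch). Also among the 12 lowest were the secreted protein genes DKK3 (-1.91) and HTRA1 (-1.90), the lipocalin receptor SLC22A17 (-1.81) and the scramblase family member PLSCR4 (-1.69). TNNC1, troponin C of slow muscle, had 1.02, 17.1 and 7.67 with match against 81.1, 93.0 and 54.5 with mismatch (-1.94, SE 0.31). TNNC1 was 1.93 above dexamethasone alone with mismatch and at -0.01 with match (limma adjusted p = 0.99). With dexamethasone alone it was at 1.80, 27.0 and 1.79. The match and dexamethasone values lay near the floor of the arrays, so a difference between these groups could be missed. Of 29 other tested probe sets that 12 of these 24 highest and lowest genes have, 19 were called in the same direction, 0 in the opposite one and 10 were not called.

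**Figure D2:**
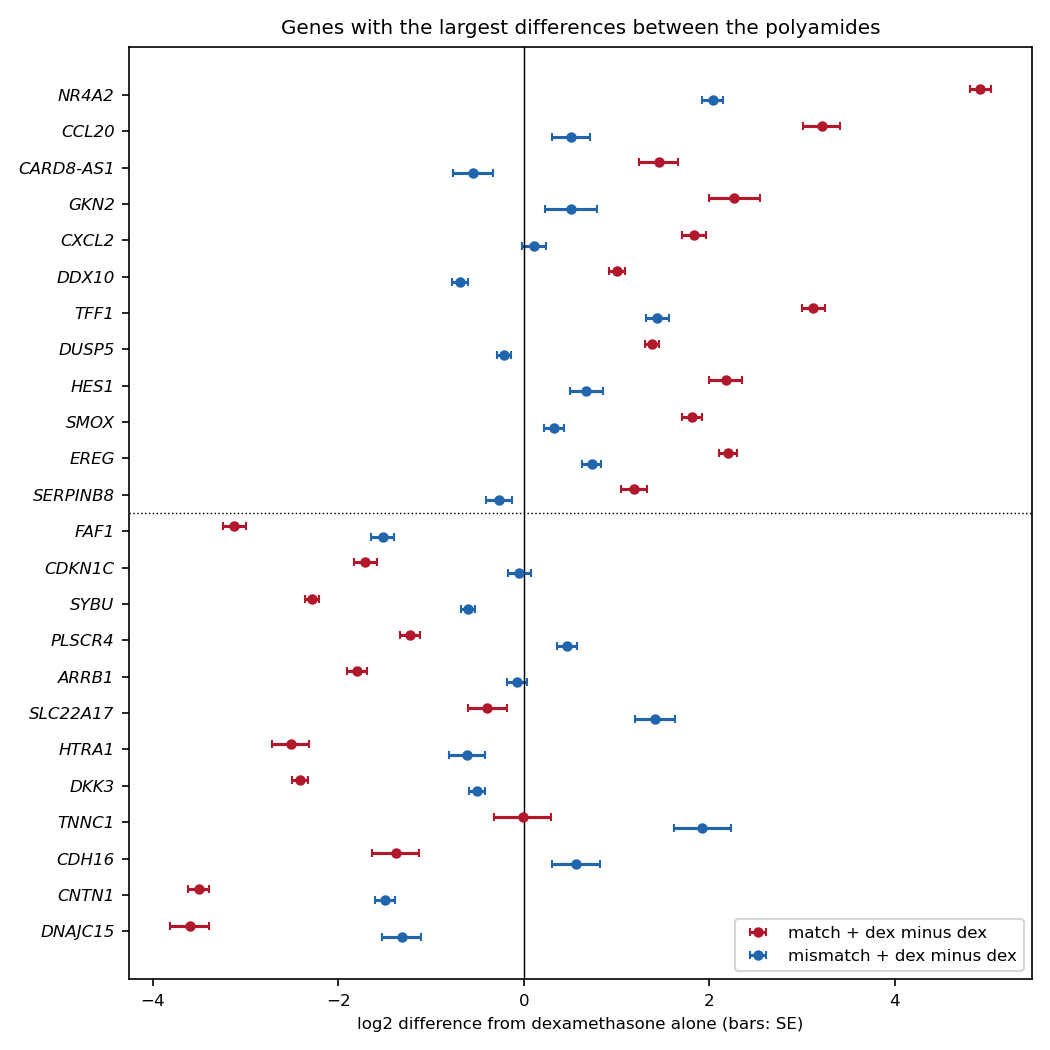
Log2 differences from dexamethasone alone for the 12 genes highest and the 12 lowest in match over mismatch, with match and mismatch side by side; points are means of 3 arrays and bars are standard errors. Both differences use the same dexamethasone arrays. NR4A2 stood at 4.92 with match and 2.04 with mismatch, and TNNC1 at -0.01 with match and 1.93 with mismatch.

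Genes that dexamethasone raised were counted first. They were picked on the dexamethasone and non-treated arrays, which the match and mismatch difference does not use. Of 139 genes raised at least 2-fold by the hormone (0.85% of those tested), 82 were called lower with match, 11 higher and 46 did not pass, beside 13.5% lower and 9.41% higher of all genes. Their median difference was -0.51, beside -0.02 over all genes. Against dexamethasone alone, the same genes had a median of -0.96 with match and -0.42 with mismatch, beside 0.05 and 0.07 over all genes. These values share the dexamethasone arrays, and since the genes were chosen as high on those arrays, the choice itself pushes both medians down, so they are given as a description. With spike-in scaling 42 of them were called lower. Among the 11 higher ones, named after their values were seen, were ZFP36, which destabilises cytokine transcripts, at 0.46 (SE 0.10), and the transcription factors KLF4 at 0.54 (SE 0.09) and FOS at 0.92 (SE 0.17). Among the 21 raised at least 4-fold, 17 were called lower with match and the median was -1.16, and among the 86 raised by 1 to 1.5 log2 units 43 were called lower and the median was -0.42.

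FKBP5, a co-chaperone that holds the receptor in a low-affinity state and is among its best known targets, had 509, 586 and 566 with match against 1480.0, 1573 and 1504 with mismatch (-1.43, SE 0.07, limma adjusted p = 8.7e-11). With dexamethasone alone it was at 2659, 2711 and 2828 and without treatment at 213, 229 and 251. The 4 groups of FKBP5 arrays did not overlap, and match lay nearest to non-treated. A second probe set of FKBP5 stood at -1.32 and the third at -0.66, which did not pass (adjusted p = 0.0748). TFCP2L1, a transcription factor of the grainyhead family, had 101, 82.3 and 108 with match and 284, 342 and 306 with mismatch (-1.53, SE 0.11). The methyltransferase gene TMT1A at -1.59, RASSF4, a member of the RAS association family, at -1.55, and CDKN1C, DNAJC15, ARRB1, SYBU and CDH16, given above, made up the 8 largest differences of this set.

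Other known targets gave other values. DUSP1, the phosphatase of stress kinases, had 5248, 5001 and 4764 with match and 5001, 4773 and 5192 with mismatch, and the groups overlapped (0.00, 95% CI -0.09 to 0.10). ANGPTL4, an inhibitor of lipoprotein lipase, had 202, 234 and 276 with match and 276, 299 and 217 with mismatch (-0.14, 95% CI -0.47 to 0.19). Both intervals lie above the difference of FKBP5. SGK1, a kinase of salt transport, was higher with match at 809, 745 and 856 against 512, 480.4 and 506 with mismatch (0.67, SE 0.10, limma adjusted p = 6.9e-05), though on the deposited signals its adjusted p was 0.059. TSC22D3, or GILZ, an inhibitor of inflammatory signalling, had 639, 690.2 and 681 with match and 836, 819 and 851 with mismatch (-0.31, SE 0.09, adjusted p = 0.027), and its call was lost in 8 of 17 other settings, among them without match replicate 1 (0.091) or 3 (0.051) and without mismatch replicate 1 (0.070), 2 (0.054) or 3 (0.079). KLF9, a Krüppel-like factor, stood at -0.58 (adjusted p = 0.036) on signals of 14.6, 19.8 and 14.3 with match and 26.7, 36.6 and 33.6 with mismatch, and its call was lost without match replicate 1 (0.098) or 3 (0.09996) and without mismatch replicate 2 (0.127) or 3 (0.096), among 9 of 16 settings. ZBTB16 was dim in both groups and did not pass (0.01, 95% CI -0.60 to 0.62), and no tested probe set carries the symbol of PER1 alone.

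Genes that dexamethasone lowered were counted in the same way. Of 55 lowered at least 2-fold (0.336%), 27 were called higher with match than with mismatch, 2 lower and 26 did not pass. These were 49.1% higher and 3.64% lower, beside 9.41% higher and 13.5% lower of all genes. Their median difference was 0.35, beside -0.02 over all genes. The largest was NR4A2, given above, and CYP24A1, which breaks down vitamin D, had 1255, 1636 and 1406 with match and 586, 699.9 and 621 with mismatch (1.15, SE 0.10). HMOX1, haem oxygenase, had 1242, 1060.4 and 1019 with match and 500.1, 424 and 603 with mismatch (1.11, SE 0.12). The ubiquitin ligase MARCHF4 at 1.40, the chemokine CXCL3 at 1.33, the oxidative stress gene OSGIN1 at 1.15, the early gene IER2 at 1.09 and EREG completed the 8 largest. Against the means of non-treated cells, the match mean was higher for NR4A2 (985 against 101) and EREG (647 against 385). It was also higher for CXCL3, OSGIN1 and IER2. The match mean was lower than the non-treated one for CYP24A1 (1432 against 2755), HMOX1 (1107 against 2245) and MARCHF4 (108 against 121). NR4A2 had a mismatch mean of 120. The differences from non-treated cells were not tested.

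**Figure D3:**
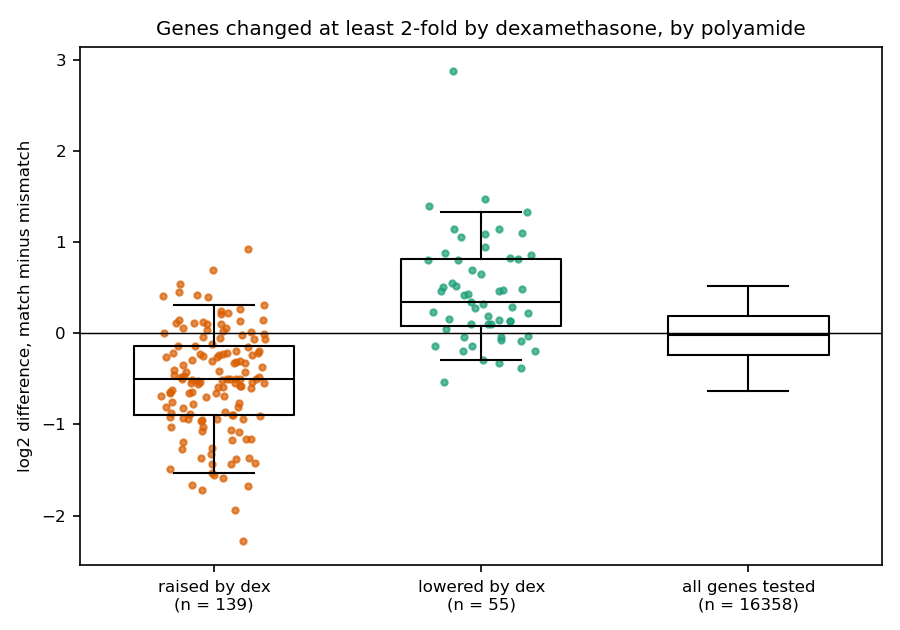
Match minus mismatch differences (log2) of genes raised at least 2-fold by dexamethasone (139), lowered at least 2-fold (55) and of all genes (16358); boxes are quartiles, whiskers the 5th and 95th percentiles and points single genes, not drawn for all genes. The medians were -0.51, 0.35 and -0.02.

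Promoter sequences of 4 of these genes are shown because the ligands act on DNA: FKBP5 and TFCP2L1 were lower with match, CCL20 and CXCL2 higher. Each runs from 250 bases before to 50 bases after a RefSeq start of GRCh38.p14, the first start that the table lists. Capitals mark matches, on either strand, to a hexamer of A or T, G, A or T, A or T, C, A or T, a pattern that holds the half-site AGAACA and its reverse complement TGTTCT. The sources used here do not say which letters either ligand prefers. The windows are chr6:35728534-35728833 (minus strand) for FKBP5, chr2:121285153-121285452 (minus strand) for TFCP2L1, chr2:227813592-227813891 (plus strand) for CCL20 and chr4:74099146-74099445 (minus strand) for CXCL2.
FKBP5: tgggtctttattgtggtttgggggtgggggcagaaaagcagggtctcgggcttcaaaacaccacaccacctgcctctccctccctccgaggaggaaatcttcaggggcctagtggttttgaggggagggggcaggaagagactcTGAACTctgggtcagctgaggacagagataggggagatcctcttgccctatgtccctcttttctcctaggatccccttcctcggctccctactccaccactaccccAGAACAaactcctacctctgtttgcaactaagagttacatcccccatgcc
TFCP2L1: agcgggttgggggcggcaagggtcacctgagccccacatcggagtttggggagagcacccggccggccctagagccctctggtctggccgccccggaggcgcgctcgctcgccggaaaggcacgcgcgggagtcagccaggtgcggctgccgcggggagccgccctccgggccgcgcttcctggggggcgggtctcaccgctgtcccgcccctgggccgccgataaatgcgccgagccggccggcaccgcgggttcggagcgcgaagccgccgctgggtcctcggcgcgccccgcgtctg
CCL20: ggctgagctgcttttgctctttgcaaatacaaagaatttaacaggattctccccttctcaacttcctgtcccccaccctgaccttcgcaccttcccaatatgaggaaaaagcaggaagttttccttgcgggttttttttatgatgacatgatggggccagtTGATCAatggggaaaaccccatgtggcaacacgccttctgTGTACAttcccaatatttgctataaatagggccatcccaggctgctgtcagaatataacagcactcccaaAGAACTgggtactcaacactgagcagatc
CXCL2: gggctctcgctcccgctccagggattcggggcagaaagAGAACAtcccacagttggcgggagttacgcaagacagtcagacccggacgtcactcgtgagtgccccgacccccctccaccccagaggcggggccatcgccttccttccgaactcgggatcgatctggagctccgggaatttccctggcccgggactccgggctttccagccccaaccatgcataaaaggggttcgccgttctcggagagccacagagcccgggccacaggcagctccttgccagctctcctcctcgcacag
The FKBP5 window held 2 such hexamers, 1 of them the half-site, that of TFCP2L1 held 0, that of CCL20 held 3 with no half-site, and that of CXCL2 held 1, which is the half-site. Of all 27305 promoters listed, 51.1% held the hexamer and 14.9% a half-site. Only 12929 of the 16358 genes tested had a promoter in the table (79.0%), under the 80% taken as the least for a comparison of gene sets, so none is given. A match in these letters is a description of the window, not a site where a ligand or the receptor was seen.

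The glucocorticoid pathway was read on lists by role. Counts in this and the later lists stand beside 9.41% higher and 13.5% lower of all genes. Of 36 tested genes that glucocorticoids induce, 16 were called lower with match and 5 higher, with a median of -0.20, though several members were put on the list from earlier results of these data. The list name does not hold for every member in these cells: EDN1, endothelin 1, which is among the 5 higher, was itself lowered by dexamethasone (-1.19, dexamethasone minus non-treated), as was ACKR3, a chemokine receptor (-0.79), and LCN2, lipocalin 2, did not pass that test (-0.03). These 3 were named after their values were seen. CEBPD, a transcription factor of the acute phase, was lower at 503, 545 and 517 against 809, 869 and 869 with mismatch (-0.69, SE 0.07). Metallothioneins are metal-binding proteins that the hormone induces. Among 9 of them and their regulators, 3 were lower (MT1F at -0.87, MT1H at -0.55 and MT1X at -0.32) and 0 higher. All 3 are read from probe sets that may take up related transcripts, so their values need not be independent. A second probe set stood at -0.44 for MT1F and -0.63 for MT1X. The calls of MT1H and MT1X were each lost in 1 of 17 other settings. NR3C1, the receptor itself, had 671, 591 and 587 with match and 857, 836 and 907 with mismatch (-0.48, SE 0.08, limma adjusted p = 0.00015), a call lost with spike-in scaling (0.204). Of 17 tested genes of the receptor and its partners, 7 were higher and 3 lower, with a median of 0.18. Over the scalings 0 to 7 were higher and 2 to 3 lower. NRIP1 was among the 7 higher ones at 0.36 (SE 0.08), a call lost in 3 of 17 other settings. Besides NR3C1 the lower ones were the coactivator NCOA2 (-0.69) and HSD11B2, the enzyme that inactivates cortisol, at 6.47, 7.02 and 16.7 with match against 50.8, 38.7 and 47.3 with mismatch (-1.26, SE 0.21).

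Immediate early genes, which cells switch on within minutes of a signal, were higher with match in 20 of 27 tested members and lower in 0, with a median of 0.54. Beside NR4A2, DUSP5 and IER2, MYC had 1846, 1677 and 1995 with match and 1099, 969 and 1034 with mismatch (0.82, SE 0.08), and IER5 stood at 0.59 (SE 0.06). Over the scaling settings the list had 9 to 20 members higher and 0 to 2 lower. Of 24 inflammatory genes, 11 were higher and 0 lower, with a median of 0.39 (6 to 11 higher and 0 to 2 lower over the scalings). PTGS2, the inducible cyclooxygenase, had 893, 809 and 888 with match and 497, 411 and 539 with mismatch (0.83, SE 0.10), and CXCL3 and IER3 (0.49) were also higher. CXCL8, the neutrophil chemokine, had 34.4, 28.9 and 19.4 with match against 3.93, 2.58 and 2.74 with mismatch (1.18, SE 0.21), and its brighter second probe set stood at 1.90.

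Genes of the ATF4 and unfolded protein response were higher in 15 of 27 members and lower in 0 (median 0.38), and over the scalings in 7 to 15 and 0 to 3. ASNS, asparagine synthetase, had 2816, 2934 and 2689 with match and 1496, 1614 and 1507 with mismatch (0.86, SE 0.06). TRIB3, a pseudokinase that ATF4 induces, stood at 1.06 (SE 0.07), PPP1R15A, which restarts translation after stress, at 1.32 (SE 0.11), the transporter subunit SLC3A2 at 0.76 and its partner SLC7A11 at 0.88. With mismatch TRIB3 differed from dexamethasone alone by 0.03 (adjusted p = 0.84), and it was 1.09 higher with match. The members that serve protein folding in the endoplasmic reticulum, named after their values were seen, were not called. They were HSPA5 (0.06), HSP90B1 (-0.22), PDIA4 (-0.26), CALR (0.37), DNAJB9 (-0.04) and SDF2L1 (-0.17). XBP1 (-0.002) was not called either, while HERPUD1 (0.26) and DDIT3 (0.69) were called higher. Ribosome biogenesis and RNA polymerase I genes were higher in 13 of 26 members and lower in 0 (median 0.33), and over the scaling settings 2 to 13 were higher. NOP2, a methyltransferase of ribosomal RNA, stood at 0.82, PES1, a factor of the large subunit, at 0.78 and POLR1B, a subunit of RNA polymerase I, at 0.52. Of 5 tested host genes of small nucleolar RNAs 4 were higher, with SNHG17 at 1318, 1348 and 1408 against 789, 828 and 723 with mismatch (0.79, SE 0.06).

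Other lists held more genes lower with match. Receptor phosphatases and adhesion molecules were lower in 8 of 20 members and higher in 0 (median -0.20), among them ALCAM at 412, 407 and 446 with match and 825, 834 and 775 with mismatch (-0.92, SE 0.07), CADM1 (-0.98) and the receptor phosphatases PTPRK (-0.87) and PTPRM (-0.83). All 20 span at least 50 kb, with a median of 249 kb, and of all genes of 200 to 500 kb 29.0% were lower. Cholesterol and fatty acid synthesis genes were lower in 7 of 21 and higher in 0 (median -0.16), with the desaturase SCD at -0.55 and ACACA, the first enzyme of fatty acid synthesis, at -0.66. Over the scalings 1 to 9 of them were lower. DNA damage and repair genes were lower in 7 of 24 and higher in 2 (median -0.19), and over the scalings 1 to 13 were lower. Their median span was 81.3 kb. The share lower was 29.2%, beside 21.1% of all genes that span 50 kb or more. The part of gene span in these lists was not tested. FANCI, of the crosslink repair pathway, had 629, 662 and 605 with match and 956, 1106 and 979.9 with mismatch (-0.67, SE 0.08). The damage kinase ATR stood at -0.48, and XPC, which finds bulky lesions, was among the 2 higher ones at 0.53. Replication genes were lower in 7 of 29 and higher in 2, among the lower ones GINS2 (-0.46) and TYMS (-0.27).

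The lists given next and the replication genes had medians of either sign over the scalings, apart from the fibroblast and endothelial markers. Several of them lay near the shares over all genes, such as the mitosis genes with 14.3% higher and 10.7% lower. p53 targets were higher in 6 of 27 and lower in 3, with PLK2 at 1.05 and TP53INP1 at -0.54. Interferon-stimulated genes were higher in 5 of 23 and lower in 2, with OAS1, a sensor of double-stranded RNA, at 1257, 1181 and 1194 with match and 749, 673 and 808 with mismatch (0.69, SE 0.07). TGF-beta and matrix genes were higher in 3 of 23 and lower in 8, and PMEPA1, a brake on that pathway, was higher at 1.13 while the receptor TGFBR2 was lower at -0.55. NRF2 targets were higher in 8 of 23 and lower in 5, with HMOX1 and SRXN1 (0.58) on one side and the malic enzyme ME1 (-0.94) and the pump ABCC3 (-1.07) on the other. Ribosomal proteins had 1 of 18 higher and 1 lower, histones 0 of 12 higher and 1 lower, and hypoxia and glycolysis genes 1 of 28 higher and 4 lower. Heat shock genes were higher in 4 of 16 and lower in 3, mitosis genes higher in 4 of 28 and lower in 3, and clock genes higher in 2 of 16 and lower in 1. The RNA polymerase II machinery was higher in 6 of 35 and lower in 3, with CDK7, a kinase of transcription initiation, at 979, 1051 and 1011 with match and 691, 611 and 557 with mismatch (0.70, SE 0.09). Epithelial and lung genes were higher in 2 of 26 and lower in 5, with TFF1 at 1.68 and the mucin MUC1 at -1.32. The marker lists of other cell types had 1 of 8 fibroblast genes higher, that being COL1A1, and 0 of 6 leukocyte and 0 of 2 endothelial genes called by limma.

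**Figure D4:**
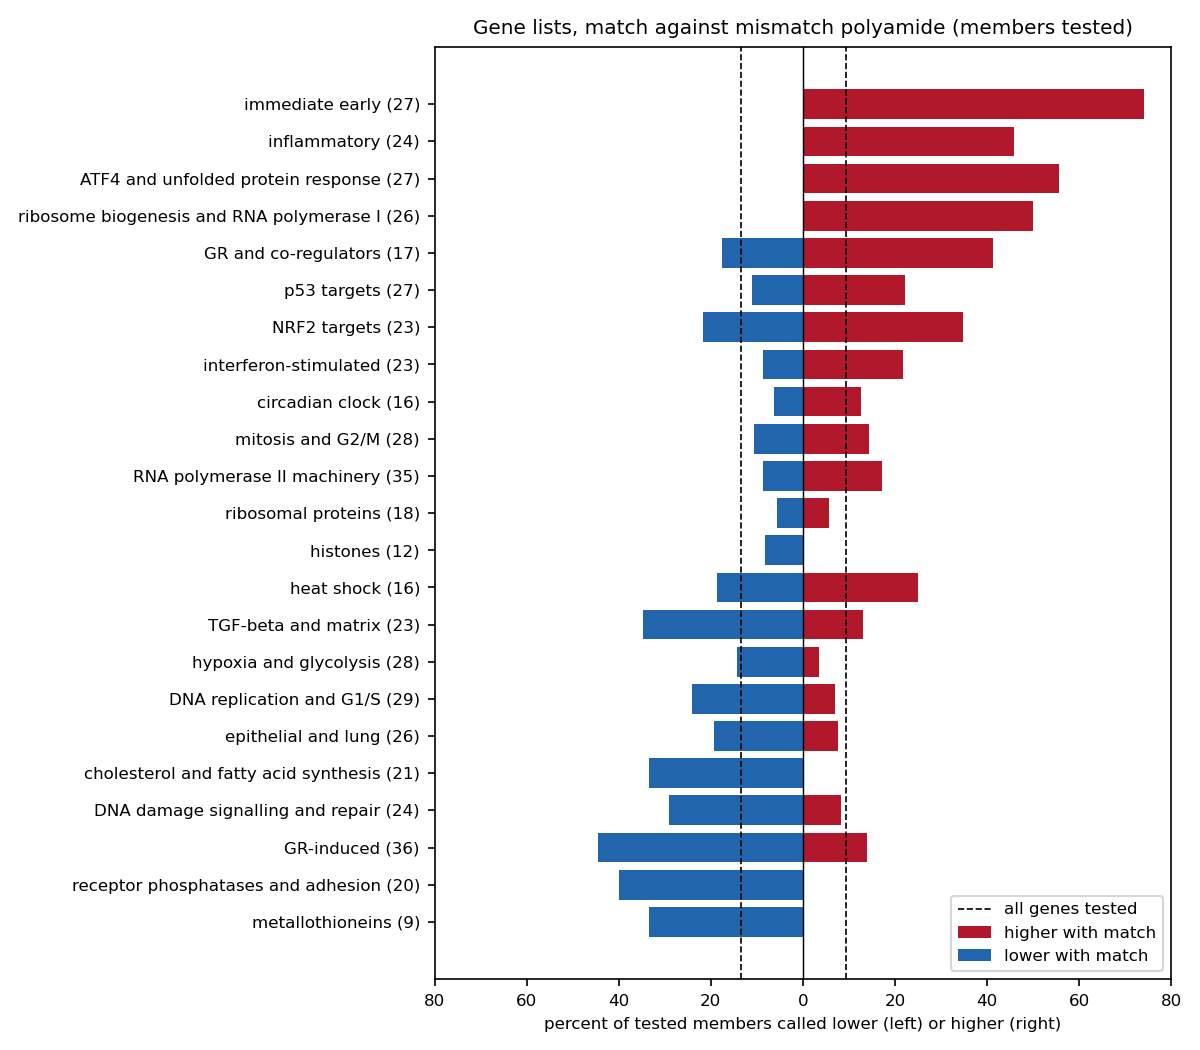
Percent of the tested members of each list called lower (left) and higher (right) with match than with mismatch, for lists with at least 9 tested members; dashed lines are the shares over all genes, 13.5% lower and 9.41% higher. Immediate early genes were higher in 20 of 27, and genes induced by glucocorticoids lower in 16 of 36.

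Gene span, the length from start to end of the gene in RefSeq, went with direction. Called lower were 7.55% of 2160 genes under 5 kb, 16.7% of genes of 50 to 100 kb, 24.2% of those of 100 to 200 kb and 29.0% of 916 genes of 200 to 500 kb. The share called higher was 9.03% under 5 kb, 11.9% at 20 to 50 kb and 4.59% at 200 to 500 kb. The 236 genes of 500 kb or more had 14.4% lower and 2.97% higher. Genes at least 2-fold lower with match had a median span of 91.5 kb and genes at least 2-fold higher 12.1 kb, beside 26.9 kb over all genes tested. Among the genes raised by dexamethasone, of 83 under 50 kb 46 were lower and 11 higher (median -0.50), and of 56 genes of 50 kb or more 36 were lower and 0 higher (median -0.56). Over all genes the medians of these classes were 0.02 and -0.10.

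**Figure D5:**
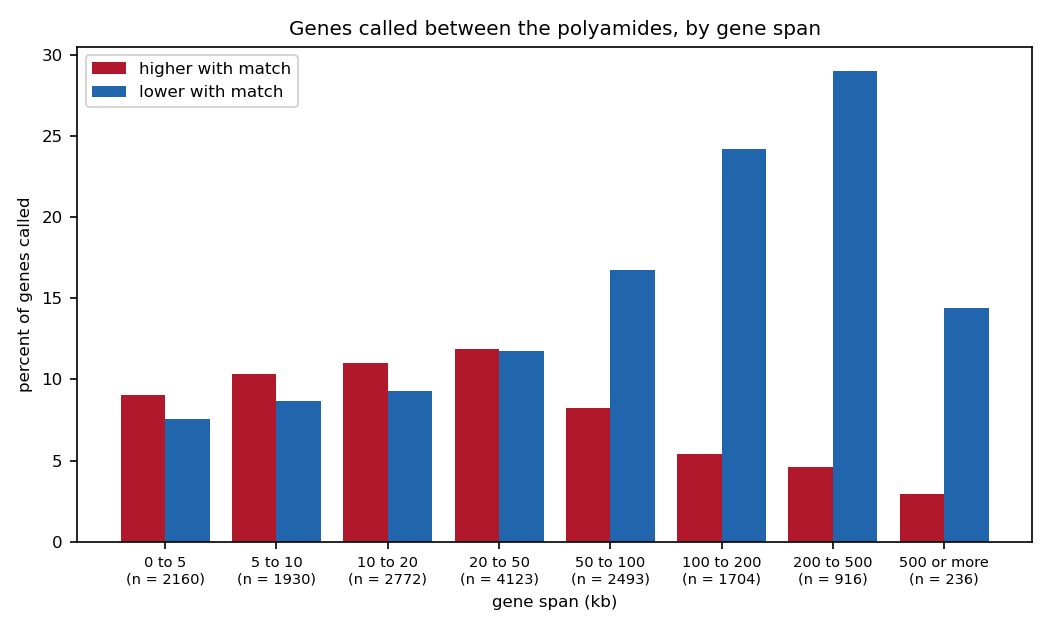
Percent of genes called higher and lower with match than with mismatch, by class of gene span in kb. The share lower was 7.55% in the shortest class and 29.0% at 200 to 500 kb, and the share higher was 4.59% at 200 to 500 kb.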

How the data were processed

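RNA of A549 cells was hybridized to 15 Affymetrix arrays, 3 arrays in each of 5 groups. The deposited values are linear intensity signals, 1 for each probe set on each array. Per the submitters' processing notes the authors used MAS5, for which the sources used here name neither version nor scaling. The signals were quantile normalized, because the arrays were not scaled alike, and log2(signal + 16) was taken. A probe set was kept if it exceeded the array's 40th percentile on 3 or more arrays, which left 39744 (72.69%) without 62 control probe sets. With limma 3.58.1 under R 4.3.3, group means were estimated from all 15 arrays together, with a variance trend (10 residual and 9.356 prior degrees of freedom), and p-values were adjusted by Benjamini and Hochberg over all probe sets tested. With 3 arrays a group, their number limits the precision.

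Of 54675 probe sets, 41097 have 1 gene symbol, 1801 several and 11777 are unnamed here. Each of 16358 genes is read from 1 probe set named for no other gene: the brightest, and an _x_at probe set only where the gene has no other. The text names the 12 genes highest and the 12 lowest among called genes whose arrays do not overlap, 11 fixed genes, up to 5 members of each of 27 lists with the smallest adjusted p, and the 8 largest called differences among genes raised and among genes lowered by dexamethasone. The members and lists were chosen with earlier results of these data known. Spans and promoters come from RefSeq GRCh38.p14, with a span for 16334 genes (99.9%).

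Alternatives were 4 other scalings, pseudocounts of 1 and 64, no filter and a stricter one, no variance trend, only the 6 arrays compared, the replicate number as a block, leaving out each array in turn, and the mean of a gene's probe sets.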

Additional observations from a re-analysis of the deposited data

How the results depend on the processing

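The count of called probe sets was 6697, and over the alternatives it ran from 2831 with spike-in scaling to 7162 with the stricter filter; on the signals as deposited it was 3094, and without 1 array at a time 5372 to 5869. The 440 probe sets called at least 2-fold became 1266 with a pseudocount of 1 and 91 with a pseudocount of 64, and 475 to 525 without 1 array. Genes raised by dexamethasone and lower with match numbered 82, 42 with spike-in scaling and 75 to 82 without 1 array. Their median was -0.63 on the deposited signals, -0.64 with median centring, -0.37 with spike-in scaling and -0.44 with a pseudocount of 64 (-0.53 to -0.49 without 1 array), and the median of genes lowered by dexamethasone was 0.21 with median centring and 0.49 with spike-in scaling (0.28 to 0.41). The 24 most changed genes kept their call and direction in 407 of 408 tests, CXCL2 at -0.021 without a filter being the exception, where another probe set stood for it. Of 131 called named genes, 44 lost their call with spike-in scaling and 32 on the deposited signals, where 1 more, RPL3, turned to -0.041 (-0.048 with median centring). The TGF-beta list median was 0.11 with spike-in scaling, that of NRF2 targets -0.12 on the deposited signals, -0.12 with median centring and -0.025 without mismatch replicate 2, and that of heat shock genes 0.10 with spike-in scaling and 0.00734 over the mean of probe sets. Genes with no call changed sign near 0: DUSP1 at -0.19, -0.20 and -0.042 with deposited, median-centred and trimmed-mean signals (-0.031 to 0.039 without 1 array), ANGPTL4 at 0.0050 with spike-in scaling, and ZBTB16 at -0.0100, -0.00022 and -0.10 with deposited signals, median centring and a pseudocount of 1 (-0.21 to 0.27 without 1 array). The cause of these shifts was not tested. With the replicate number as a block 6712 probe sets were called, and none of the 131 called named genes was lost. Nothing in the labels says that the numbers pair the samples. Deviations from the group means of same-numbered match and mismatch arrays correlated at 0.0049, 0.117 and -0.0517. Not every array correlated best with its own number. With 3 arrays a group, a weak pairing could be missed in this way.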

Other observations

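Some genes, picked after their values were seen, differed from dexamethasone alone mainly with the mismatch ligand: called between match and mismatch, at least 2-fold from dexamethasone alone with mismatch and within 0.3 log2 units of it with match. There were 21 of them among the 16358 genes tested, and genes that moved mainly with match are not counted here. Some were dim, such as GARIN5A with 2.12, 7.72 and 4.41 with match and 2.49, 10.6 and 2.99 with dexamethasone alone. Nearness of match to dexamethasone alone says little at such signals. GMPR, which converts GMP to IMP, had 72.2, 74.2 and 113 with match and 289, 237 and 241 with mismatch, against 93.2, 89.0 and 101 with dexamethasone alone. SCNN1A, a subunit of the epithelial sodium channel, had 164, 188 and 177 with match and 396, 398 and 369.6 with mismatch, against 139, 147 and 163 with dexamethasone alone. Lower with mismatch were PMEPA1, at 573, 513 and 628 with match and 278, 252 and 228 with mismatch against 531, 528 and 636 with dexamethasone alone, and JAG1, a Notch ligand, at 882, 934 and 881 with match and 481, 460.2 and 515 with mismatch against 1049, 1052 and 1068. The nearness of match to dexamethasone alone was fixed by the choice of these genes, and JAG1 was also called lower with match than with dexamethasone alone (-0.23, limma adjusted p = 0.020), with all 3 match arrays below all 3 of dexamethasone alone.

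A further 13 of the 16358 genes tested, also picked after their values were seen, differed from dexamethasone alone in opposite directions with the ligands. The difference was at least 0.5 log2 units each way. DDX10 and HMOX1, described above, were higher with match and lower with mismatch. MUC1, a mucin of epithelia, had 34.2, 60.4 and 66.8 with match and 189, 134 and 146 with mismatch against 94.5, 95.2 and 109.8 with dexamethasone alone. All these values share the dexamethasone arrays.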
